A study of Mus musculus with 30 samples.

Results

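The mitochondrial ribosome and the protein import channels of the 2 mitochondrial membranes were represented on the array by 85 of 22830 spots carrying a clone, chosen because the deposited spot name begins with mitochondrial ribosomal protein or with the translocase or translocator of the inner or the outer mitochondrial membrane. These 85 spots carry 64 names: 17 names on 22 spots belong to the small ribosomal subunit, 36 names on 47 spots to the large subunit, 10 names on 15 spots to inner membrane translocases and 1 name on 1 spot to the outer membrane translocase Tomm40. AtT-20, a mouse pituitary tumour line of corticotrope origin, was treated with 100 nM CRH (corticotropin-releasing hormone), and its RNA was hybridised together with RNA of untreated AtT-20 cells on two-colour cDNA arrays after 1, 3, 6, 12 and 24 h. By the methods of the study, the cells were deprived of fetal calf serum before CRH was added. Each of the 5 time points was measured on 6 arrays, 3 with the CRH-treated sample in Cy3 and 3 with it in Cy5, giving 30 arrays. The 6 arrays of a time point share 1 pair of RNA extracts and are technical replicates, so the 5 time points are the independent units. All results come from 1 cell line in culture, and in such bulk RNA a smaller share of cells and less RNA per cell cannot be told apart.

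Mitochondria keep a ribosome of their own that makes the few membrane proteins of the respiratory chain encoded in mitochondrial DNA. All of its proteins are encoded in the nucleus, made in the cytosol and imported. Preproteins pass the pore of the outer membrane, of which Tomm40 is the channel, and are then handed to the TIM23 complex, which contains Timm23, Timm17a or Timm17b and the motor anchor Timm44, or to the TIM22 complex, which inserts carrier proteins. The small Tim proteins of the intermembrane space, among them Timm8a1, Timm8b and the homologues of yeast Tim9, Tim10 and Tim13, escort hydrophobic precursors to the inner membrane. In corticotropes CRH acts through a receptor that raises cAMP and activates the transcription factor CREB. The transcription factors NRF1, GABP and YY1 are known regulators of nuclear genes for mitochondrial proteins.

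Symbols were set for 61 of the 64 names. The names of the Tim9, Tim10 and Tim13 homologues were left as deposited, because RefSeq lists their symbols as older symbols of one another. Mrps18a and Mrps30 are counted with the small subunit by name, although structures of the mammalian ribosome place both in the large subunit. Spots that share a name are distinguished by letters.

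The promoters of 55 member genes were found in RefSeq (GRCm38.p6), as 59 windows of 300 bases from 250 before to 50 after a transcription start, and Mrpl4, Mrpl13, Mrpl15, Mrpl19, Mrpl38 and Mrpl54 had no entry. The NRF1 core GCGCATGC was present on either strand in 6 of 59 windows (10.2%), against 2.71% of all 32851 promoter windows. The GABP motif ACCGGAAG was found in 8 windows (13.6%, against 2.3% of all) and the YY1 motif AAGATGGC likewise in 8 (13.6%, against 2.75%). The full CREB element TGACGTCA was found in 2 windows (3.39%, against 1.79%), and its core TGACG, which is contained in the full element, in 27 (45.8%, against 20.8%). Member windows were richer in G and C, with a median of 58.3% against 52.7% of all windows, and the part of base composition in these shares was not tested. Below are windows of 3 genes whose ratio changed over time and that hold a motif, Mrps21 (chr3:95871465-95871764, minus strand), Mrpl30 (chr1:37890227-37890526, plus strand) and Timm44 (chr8:4275856-4276155, minus strand), and of Mrpl9 (chr3:94443086-94443385, plus strand), whose 2 spots had the same sign at every time. Capitals mark the GABP motif on the reverse strand in Mrps21 from base 269, CRE cores in Mrpl30 from bases 158 and 259 and in Timm44 from base 221, and 2 overlapping NRF1 cores in Mrpl9 from bases 223 and 225, counted from the 5′ end of the window.
Mrps21: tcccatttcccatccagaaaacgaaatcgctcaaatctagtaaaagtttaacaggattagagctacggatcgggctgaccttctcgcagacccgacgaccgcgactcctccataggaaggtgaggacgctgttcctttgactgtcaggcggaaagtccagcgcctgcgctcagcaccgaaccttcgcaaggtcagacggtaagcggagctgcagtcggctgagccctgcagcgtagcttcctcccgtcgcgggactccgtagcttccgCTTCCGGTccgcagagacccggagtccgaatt
Mrpl30: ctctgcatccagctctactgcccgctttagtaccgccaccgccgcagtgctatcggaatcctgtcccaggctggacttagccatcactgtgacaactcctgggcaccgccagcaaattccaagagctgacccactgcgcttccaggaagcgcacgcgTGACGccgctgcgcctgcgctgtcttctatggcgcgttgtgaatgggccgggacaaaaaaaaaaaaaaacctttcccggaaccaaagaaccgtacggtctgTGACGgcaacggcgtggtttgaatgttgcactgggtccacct
Timm44: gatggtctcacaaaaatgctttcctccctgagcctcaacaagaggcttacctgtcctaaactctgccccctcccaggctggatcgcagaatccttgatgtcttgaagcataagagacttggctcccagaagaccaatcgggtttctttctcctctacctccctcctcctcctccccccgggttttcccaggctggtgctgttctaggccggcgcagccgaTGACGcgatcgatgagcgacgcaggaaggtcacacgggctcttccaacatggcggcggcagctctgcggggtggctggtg
Mrpl9: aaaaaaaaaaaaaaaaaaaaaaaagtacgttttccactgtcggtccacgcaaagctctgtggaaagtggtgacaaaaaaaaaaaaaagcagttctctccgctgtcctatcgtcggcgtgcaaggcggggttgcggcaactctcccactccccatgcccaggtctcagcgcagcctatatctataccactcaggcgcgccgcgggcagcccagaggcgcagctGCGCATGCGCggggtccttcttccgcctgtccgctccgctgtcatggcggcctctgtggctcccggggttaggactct
Neither the Timm17a nor the Mrpl40 window held any of these motifs, although a spot of each gene also changed over time. The windows of changed genes printed here were picked for holding a motif. Whether motifs go with a change over time was not tested. Both Mrpl9 spots were split by dye, as given below.

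**Figure D1:**
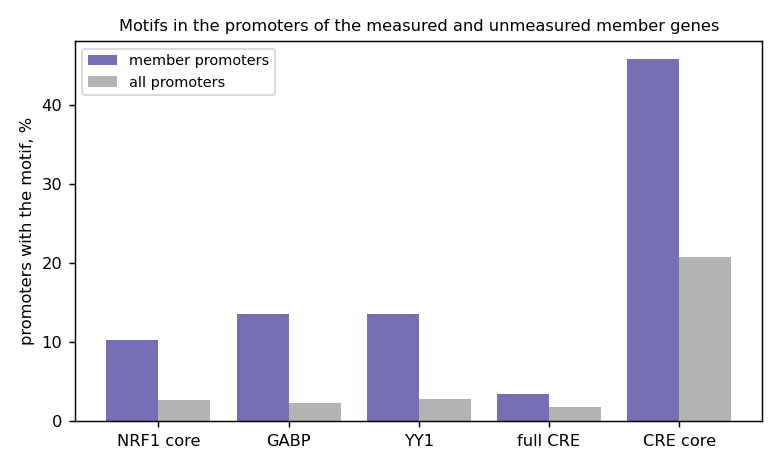
Share of promoter windows (%, y axis) that hold each of 5 motifs on either strand, for 59 windows of member genes (purple) and all 32851 windows (grey). The largest shares are those of the CRE core, 45.8% and 20.8%.

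Of the 85 member spots 63 were brighter than the dimmest 10% of spots in Cy3 and in Cy5 on all 30 arrays and were measured, 17 of the small subunit, 35 of the large subunit and 11 of the inner membrane translocases. Of 22830 spots in all, 14375 were measured. Tomm40 was too dim on 1 array, so no outer membrane translocase was measured. Of the 22 dim spots, 12 missed the limit on 1 or 2 arrays only, while the spot of Mrps23 was dim on all 30, Mrps24 and Mrpl19 spot b on 28, Mrpl54 on 22 and Mrpl38 on 21. The labelled lineage was checked with its markers: Pomc, the precursor of ACTH, and Tbx19, the factor that defines corticotropes, were measured, and 6 of 8 matched corticotrope genes had a measured spot. Spots of Gh, Gata2, Cd3g, Tyrobp and of 3 endothelial genes also passed the limit, so passing it does not by itself show expression. The ratios differed between dye orientations. Across the 14375 spots the mean ratios of the 2 dye orientations correlated at r from -0.64 at 6 h to -0.29 at 1 h, as a description. Among the 63 member spots the median size of the difference between orientations was 0.41 on the log2 scale, against 0.30 over all spots. Between the 6 arrays sharing a time point the SD had a median of 0.35 for member spots and 0.33 for all spots.

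The first question was whether CRH shifted the members over the whole time course. The mean log2 ratio of the 63 measured member spots (CRH-treated over untreated), averaged over the 5 time points, ranged from -0.13 for Timm23 to 0.12 for Mrpl37 spot b, with 32 spots above 0 and 31 below. The median size of this mean was 0.051 for member spots and 0.045 for all spots. With time points as units, limma with Benjamini-Hochberg adjustment over 14375 spots called 0 of 63 members for the CRH effect at an adjusted p under 0.05, beside 0.0557% of all spots. At an unadjusted p under 0.05 stood 0 members, against 782 of 14375 spots (5.44%). A trend with the logarithm of time and a difference between late (12 and 24 h) and early (1, 3 and 6 h) times were called in 0 members and in 0% of all spots each. At an unadjusted p under 0.05 these were 2 and 1 members, against 1068 and 531 of all spots. The SE of the members' means was 0.054 to 0.090, and a missed threshold does not show that a ratio was 0.

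Within the small subunit, mean log2 ratios over the 5 times ran from -0.099 for Mrps6 to 0.084 for Mrps21 spot a, with a median of -0.012. Mrps14 spot b was next lowest at -0.077 ± 0.15 (SD over 5 time points) and Mrps30 spot b next highest at 0.055 ± 0.16, which became 0.0057 without replicate 3 and -0.0088 when the spots of Mrps30 were averaged. In the large subunit, the lowest means were -0.13 ± 0.27 for Mrpl49 spot a and -0.11 ± 0.12 for Mrpl16, and the highest 0.12 ± 0.097 for Mrpl37 spot b and 0.11 ± 0.089 for Mrpl33. Among inner membrane translocases, Timm23, the channel of the TIM23 complex, was lowest at -0.13 ± 0.20 and Tim13 homologue a spot b next at -0.11 ± 0.31. With median centring in place of loess, or with 1 loess per array, the mean of Timm23 was -0.012 and -0.066, and that of Tim13 homologue a spot b was lower at -0.15 and -0.092. Timm8b spot a was highest at 0.078 ± 0.099, followed by the Tim9 homologue at 0.064 ± 0.16. For 10 of these 12 spots the SD over time points exceeded the size of the mean, the exceptions being Mrpl37 spot b and Mrpl33. All 12 missed the threshold of limma, the lowest adjusted p being 0.92 for Mrpl37 spot b.

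By time point, the classes moved little. The 35 large-subunit spots had medians of -0.038, 0.078, 0.043, -0.011 and 0.036 at 1, 3, 6, 12 and 24 h. On single arrays this median lay between -0.12 and -0.022 at 1 h, below 0 on all 6 arrays, and between 0.010 and 0.19 at 3 h, above 0 on all 6. The small-subunit median was -0.082, -0.0073, 0.026, 0.030 and -0.0033 at 1, 3, 6, 12 and 24 h. That of the 11 inner membrane translocase spots was 0.062, 0.042, -0.095, -0.019 and -0.0040. Over all 14375 spots the medians were 0.0027, -0.017, -0.0025, -0.010 and -0.013. A ratio below 0 at 1 h and above 0 at 3 h was seen in 26 of 63 member spots (41.3%), in 16 of 35 large-subunit spots in 7 of 17 small-subunit spots and in 3 of 11 inner membrane translocase spots (27.3%), against 26.9% of all spots, and is given without a test. The 1 h arrays were quantified on a day of their own, so this step and the day cannot be told apart.

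**Figure D2:**
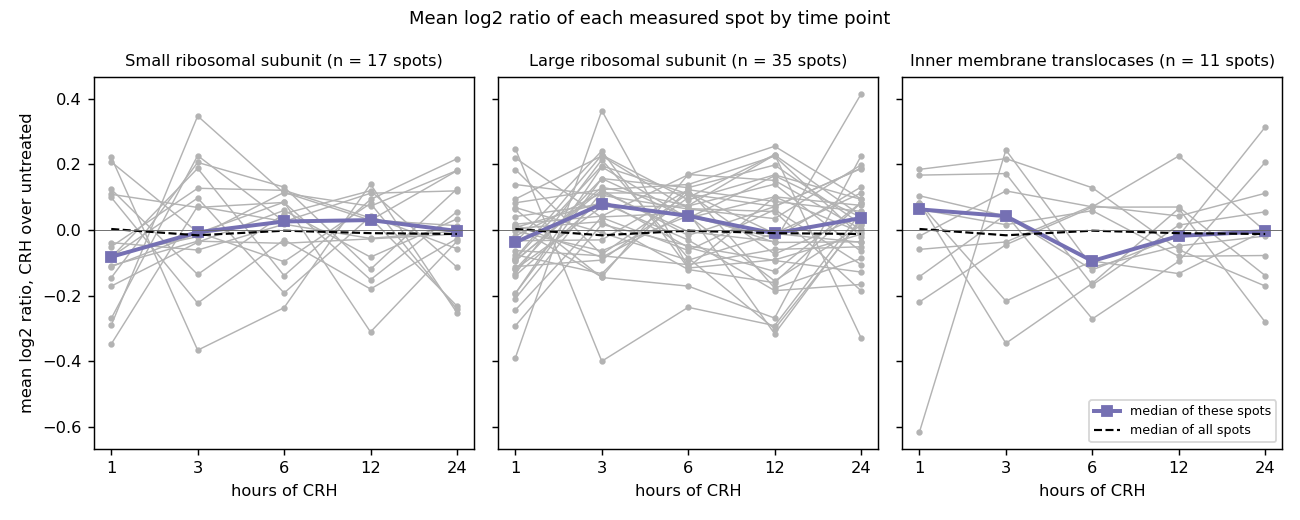
Mean log2 ratio, CRH-treated over untreated (y axis), against hours of CRH (x axis), for the 17 small-subunit, 35 large-subunit and 11 inner membrane translocase spots (grey lines), with the class median (purple) and the median of all 14375 spots (dashed). The large-subunit median lies at -0.038 at 1 h and 0.078 at 3 h, and the single low point at 1 h among the translocases is Tim13 homologue a spot b.

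At single time points the size rule asked for a mean of at least 1.5-fold (0.585 on the log2 scale) with the same sign on all 6 arrays. It was met upwards by 0 members at any time, beside 0.104%, 0.16%, 0.0348%, 0.118% and 0.0974% of all spots at 1, 3, 6, 12 and 24 h, and downwards by 1 member, at 1 h, beside 0.0974%, 0.0209%, 0%, 0.0209% and 0.0487%. That member was Tim13 homologue a spot b, a small Tim of the intermembrane space. At 1 h its log2 ratios lay between -1.06 and -0.17 with a median of -0.58, below 0 on all 6 arrays. Its mean at 1 h was -0.62 ± 0.34 (SD, 6 arrays), similar in both dye orientations at -0.58 with CRH in Cy3 and -0.65 with CRH in Cy5. Without replicate 3 or without replicate 6 the mean, -0.53 and -0.51, no longer reached the limit. At later times the 2 orientations of this spot had opposite signs, as given below.

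The second question, after the methods of the study, was which spots changed between time points by a linear model over the 30 arrays, with dye-swap as a term, after spots with an interaction of time and dye-swap at p under 0.01 were set aside. Its p-values cover only how repeated hybridisations of 1 pair of extracts scattered, and nothing about other cultures. Such an interaction was found in 7 of 63 members, beside 14.8% of all spots. Of the 56 remaining members 6 changed over time at p under 0.01 (10.7%), beside 8.5% of all 12244 remaining spots, a share near the background. They were Timm17a spot b, Timm44 spot a and Tim13 homologue a spot b of the inner membrane translocases, Mrps21 spot a of the small subunit, and Mrpl40 spot a and Mrpl30 of the large subunit. After Benjamini-Hochberg adjustment over the 12244 spots, 3 of the 56 members had an adjusted p under 0.05 (5.36%). Of all spots 488 did (3.99%), so the share of members was again near the background. The 3 members were Timm17a spot b, Mrps21 spot a and Tim13 homologue a spot b. Without replicate 3 at all time points 2 members passed, and without replicate 2 or replicate 6 it was 3. With the quantification day as a block 0 members passed. That block leaves only 3 h against 6 h and 12 h against 24 h to compare. It therefore cannot decide on differences of 1 h from other times or of early from late times. Only 3 and 6 h share a day in full, and between these times alone 3 of the 6 passed, namely Mrps21 spot a, Tim13 homologue a spot b and Timm44 spot a. On the day shared by 2 arrays of 12 h, both with CRH in Cy5, and the 6 of 24 h, 0 members passed. The share of all spots that passed was not counted with the day as a block or within a shared day. These member counts therefore have no background beside them.

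Timm17a, a core subunit of the TIM23 complex, was higher at the early than at the late times. The log2 ratios of its measured spot ranged from -0.19 to 0.57 with a median of 0.20 at 1 h, from -0.19 to 0.52 (median 0.26) at 3 h and from -0.36 to 0.52 (median 0.10) at 6 h. They ranged from -0.53 to 0.40 (median -0.046) at 12 h and from -0.50 to 0.26 (median -0.17) at 24 h. The ranges of all time points overlapped, and arrays with CRH in Cy3 stood above those with CRH in Cy5 at every time. Within both orientations the means at 12 and 24 h lay below those at 1, 3 and 6 h, with values of 0.39, 0.50, 0.44, 0.33 and 0.091 in Cy3 and of -0.018, -0.068, -0.19, -0.45 and -0.43 in Cy5. Over both orientations the means were 0.18, 0.22, 0.13, -0.061 and -0.17, and time had an adjusted p of 0.0061 in the linear model. With time points as units, late minus early was -0.29 ± 0.12 (SE) in limma, at an unadjusted p of 0.027 and an adjusted p of 1.00. No quantification day held both early and late arrays, so the difference between early and late times and the day cannot be told apart. The other spot of Timm17a was dim on 12 arrays, and its means without the limit, -0.72, 0.095, -0.46, 0.43 and -0.13, did not follow the same order. The paralogue Timm17b had means of -0.22, -0.045, 0.069, 0.070 and -0.14 on its measured spot, which did not pass the test.

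Mrps21, a small-subunit protein, was low at 1 h and high at 3 h. The log2 ratios of spot a lay between -0.75 and 0.22 with a median of -0.29 at 1 h, above 0 on 1 of 6 arrays, and between -0.0020 and 0.69 with a median of 0.39 at 3 h, above 0 on 5. Later they ranged from -0.23 to 0.46 (median 0.054) at 6 h, from -0.40 to 0.48 (median 0.090) at 12 h and from -0.13 to 0.50 (median 0.20) at 24 h. The 1 h and 3 h ranges overlapped between orientations but not within either of them. The means were -0.29, 0.35, 0.11, 0.072 and 0.18, and time had an adjusted p of 0.0099. Spot b had the same sign at all 5 times, with means of -0.27, 0.23, 0.025, 0.11 and 0.12. On spot b the ranges at 1 h (-0.83 to -0.012, median -0.20) and at 3 h (0.092 to 0.40, median 0.23) did not overlap, although its time p of 0.050 missed the threshold. The share of all spots with such separate ranges was not counted. All 1 h arrays were quantified on a day of their own. Here and in other members, a step from 1 h to 3 h and the day cannot be told apart.

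Tim13 homologue a spot b, low at 1 h as given above, ranged from -0.16 to 0.69 (median 0.22) at 3 h, from -0.57 to 0.31 (median -0.087) at 6 h, from -0.74 to 0.60 (median -0.080) at 12 h and from -0.72 to 0.85 (median -0.067) at 24 h. The means after 1 h were 0.24, -0.11, -0.049 and -0.019, and time had an adjusted p of 0.032. At these later times the spot was split by dye. Its means were 0.57, 0.19, 0.43 and 0.48 with CRH in Cy3 and -0.083, -0.41, -0.52 and -0.52 with CRH in Cy5. Spot a of the same name was dim on 1 array, and its means without the limit were -0.41, 0.27, -0.14, -0.13 and -0.081. Both spots were therefore lowest at 1 h and highest at 3 h. Timm44, which anchors the import motor to the TIM23 complex, was below 0 on all 6 arrays at 6 h, from -0.56 to -0.075 with a median of -0.21. Its ratios were -0.24 to 0.14 (median -0.20) at 1 h, -0.13 to 0.16 (median 0.082) at 3 h, -0.44 to 0.15 (median -0.045) at 12 h and -0.52 to 0.57 (median 0.39) at 24 h. The 6 h range overlapped with those at 1, 3, 12 and 24 h. The means of Timm44 spot a were -0.14, 0.047, -0.27, -0.096 and 0.21, with an adjusted p of 0.098 for time. Spot b of Timm44, dim on 4 arrays, had means of 0.25, 0.15, 0.33, 0.19 and 0.11 without the limit. It was above 0 at every time, of opposite sign to spot a at 1, 6 and 12 h.

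Mrpl40 spot a lay between -0.88 and 0.17 (median -0.43) at 1 h and between -0.30 and 0.80 (median 0.42) at 3 h, then from -0.46 to 0.29 (median -0.13) at 6 h, from -0.27 to 0.32 (median 0.12) at 12 h and from -0.46 to 0.24 (median 0.043) at 24 h. It stood above 0 on 1 of 6 arrays at 1 h and on 5 of 6 at 3 h, with overlapping ranges. Its means were -0.39, 0.36, -0.11, 0.10 and -0.0076, with an adjusted p of 0.070 for time. Mrpl40 spot b had means of -0.14, 0.093, -0.053, -0.13 and 0.083, smaller in size than those of spot a at 1, 3 and 6 h and of opposite sign and larger size at 12 and 24 h. Mrpl30, which had 1 spot, was split by dye at every time. Its ratios ranged from -0.83 to 0.37 (median -0.18) at 1 h, from -0.35 to 0.77 (median 0.068) at 3 h, from -0.55 to 0.93 (median 0.024) at 6 h, from -0.37 to 0.67 (median 0.25) at 12 h and from -0.40 to 0.58 (median -0.076) at 24 h, with 3 arrays above 0 each time. The means of Mrpl30 were -0.19, 0.16, 0.13, 0.20 and 0.018, with an adjusted p of 0.12 for time.

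**Figure D3:**
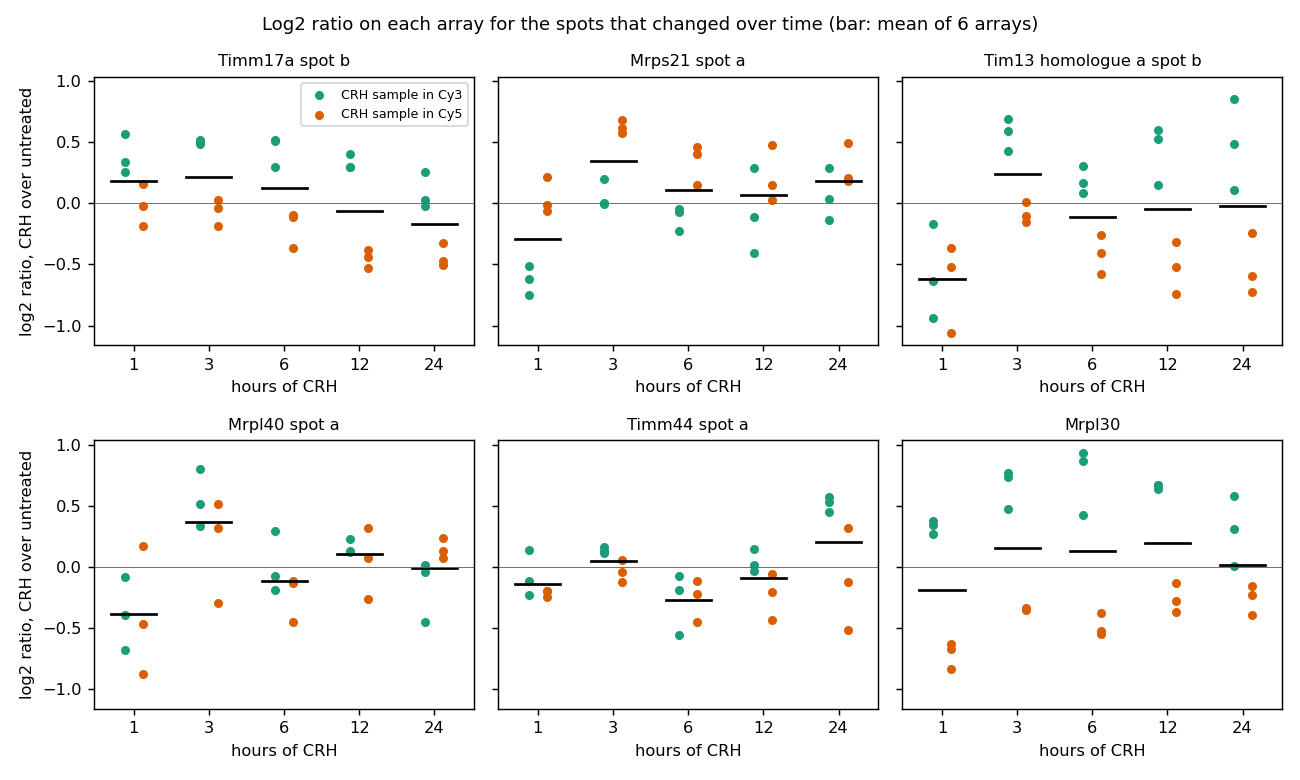
Log2 ratio on each array, CRH-treated over untreated (y axis), against hours of CRH (x axis) for the 6 member spots that changed over time, with the CRH-treated sample in Cy3 (green) or Cy5 (orange), 3 arrays each, and the mean of the 6 arrays as a bar. Mrpl30 is split by dye at every time, while Tim13 homologue a spot b lies below 0 in both orientations at 1 h.

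Spots set aside for their interaction were Mrps6 (adjusted p = 0.00078), Mrpl49 spot a (adjusted p = 0.0032), Mrpl9 spot b (adjusted p = 0.0059), Mrpl11 (adjusted p = 0.0089), the Tim10 homologue (adjusted p = 0.011), Mrpl45 spot b (adjusted p = 0.017) and Timm23 (adjusted p = 0.047), all by the linear model. The interaction of Timm23 was lost when any of replicates 2 to 6 was left out. In these the 2 orientations did not move in parallel. Mrpl49 spot a had means of 0.015, -1.27, -0.95, -0.92 and -0.45 with CRH in Cy3, and of 0.48, 0.47, 0.48, 0.33 and 0.55 with CRH in Cy5. Mrps6 had means of 0.080, -1.07, -0.78, -0.59 and -1.13 with CRH in Cy3, and of 0.36, 0.34, 0.31, 0.87 and 0.63 with CRH in Cy5. In both genes the Cy5 means stood above the Cy3 means at every time. Mrpl11, a protein at the base of the ribosomal stalk, was the only one of the 7 above 0 on all 6 arrays of any time point, at 24 h, where it ranged from 0.11 to 0.77 with a median of 0.38. Its mean at 24 h was 0.41, 0.70 with CRH in Cy3 and 0.13 with CRH in Cy5.

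The other members did not pass these tests, and a few are given as values chosen after they were seen. Mrps22, of the small subunit, lay between -0.71 and 0.30 with a median of -0.40 at 1 h, above 0 on 1 of 6 arrays, and had means of -0.35, 0.072, 0.026, 0.030 and 0.013. Mrpl1 was also above 0 on 1 of 6 arrays at 1 h, where it ranged from -0.50 to 0.035, with means of -0.24, 0.039, 0.052, -0.038 and -0.036. Mrpl16 had its lowest mean at 1 h too, -0.29, and means of 0.017, -0.049, -0.093 and -0.13 afterwards. Mrpl13 was above 0 on all 6 arrays at 12 h, from 0.063 to 0.55 with a median of 0.11, and had means of -0.095, 0.13, 0.074, 0.23 and 0.043. Mrpl28 varied least over the 5 times, with means of -0.063, -0.079, -0.11, -0.060 and -0.052, while its arrays were split by dye, above 0 in the Cy3 and below 0 in the Cy5 orientation means at every time. Among the remaining translocases, Timm22, the channel of the carrier pathway, had means of 0.081, -0.22, -0.095, -0.13 and -0.0014, and Timm8a1, whose human counterpart is mutated in a deafness-dystonia syndrome, had 0.17, 0.17, -0.17, 0.015 and 0.055. Timm23 had means of 0.082, -0.35, -0.16, 0.065 and -0.28 and the interaction with dye, with -0.99 in the Cy3 and 0.30 in the Cy5 orientation at 3 h. Member means spanned -0.62 to 0.25 at 1 h, -0.40 to 0.36 at 3 h and -0.27 to 0.17 at 6 h. They spanned -0.32 to 0.25 after 12 h and -0.33 to 0.41 after 24 h.

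For 10 genes more than 1 spot was measured, giving 12 pairs of spots and 60 comparisons of means at the same time. The means had the same sign in 35 of the 60, and the median over pairs of the average difference between 2 spots was 0.14. The median size of a member's mean was 0.083 to 0.11 by time point. A difference holds the scatter of 2 spots, so these sizes are unlike measures. Pairs of same-named spots among all spots were not compared. Mrps21 and Mrpl9 had the same sign at all 5 times and differed on average by 0.066 and 0.085. Mrpl9, of the large subunit, had means of -0.089, 0.20, 0.11, 0.072 and 0.19 on spot a and of -0.19, 0.19, 0.035, 0.16 and 0.038 on spot b. Both Mrpl9 spots were split by dye, above 0 in the Cy3 and below 0 in the Cy5 orientation means at every time. At 6 h these were 0.60 and -0.38 on spot a and 0.85 and -0.78 on spot b, which had the interaction. The means of the same sign were small beside this split. Mrpl45 and Mrps14 had the same sign at 4 times, and Mrpl3, Mrpl40 and Timm8b at 3. Mrpl37 did so at 2 times, with means of -0.16 on spot a and 0.25 on spot b at 12 h. Mrps30 had the same sign at 1 time only and the largest average difference, 0.24. The 3 pairs formed by the spots of Mrps10 had the same sign at 1, 2 and 2 times.

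**Figure D4:**
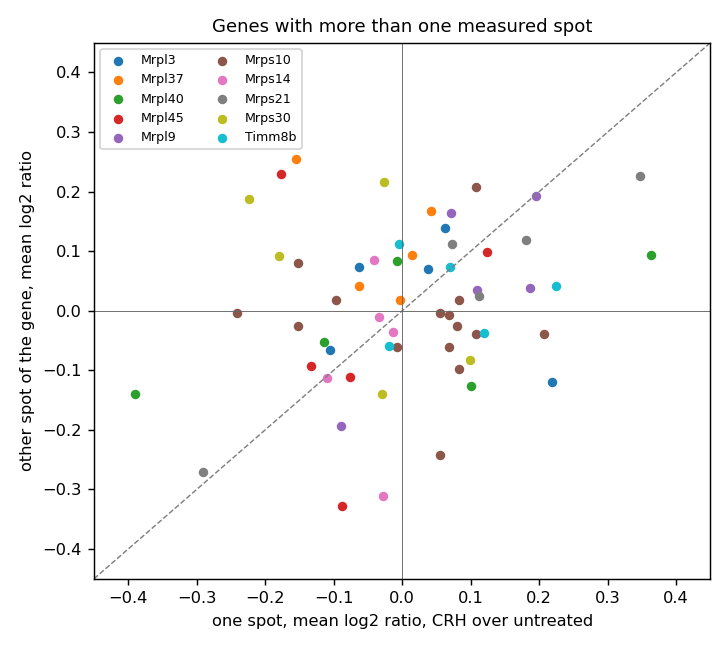
Mean log2 ratio of 1 spot (x axis) against the other spot of the same gene (y axis), for the 10 genes with more than 1 measured spot, 1 point per pair and time point (60 points). Points to the upper right and lower left of the 2 zero lines have the same sign, 35 of 60, and the dashed line marks equal values.

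Other genes of mitochondrial translation, import and their transcription were taken from a list of 66 genes, of which 22 were matched to spot names and 17 had a measured spot, on 21 spots. Over the 5 times their median was 0.0035. In limma 0 of 21 spots were called for the CRH effect, the trend or the late difference, and the size rule was met by 0. The linear model called 2 of the 19 spots without the interaction for time (10.5%, beside the 8.5% of all spots given above). They were Hspd1, the mitochondrial chaperonin that folds imported proteins, with means of -0.39, 0.21, 0.057, 0.23 and -0.039 (adjusted p = 0.096), and a spot of Grpel2, a nucleotide exchange factor of the import motor, with means of -0.42, 0.24, 0.11, -0.19 and -0.023 (adjusted p = 0.097). The other Grpel2 spot, which had the interaction, had means of -0.39, 0.085, -0.095, -0.0057 and -0.16. Ppargc1a, a coactivator of mitochondrial biogenesis, had the next lowest p for time, 0.0147, which missed the threshold.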

How the data were processed

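The authors deposited, per array, unnormalized scanner intensities of each spot and its surroundings in Cy3 and Cy5, and a table of log2 ratios for 12593 spots, made by their methods after removal of the dimmest 10% and a loess fit per print-tip block. That table was an alternative here (r from 0.977 to 0.994 with the ratios used, over 11341 shared spots). Each array has 24192 spots in 48 blocks, and 1170 empty and 192 control spots were left out. Spots brighter than the dimmest 10% in each channel of all 30 arrays were kept, and log2 ratios were corrected by loess per block (span 0.75, degree 2, 4 iterations) without background subtraction. Median channel intensities were 457.9 to 2038.4 and the precision is limited by the 1 pair of extracts per time point, which the 6 arrays only repeat. Ratios were turned to CRH-treated over untreated, averaged per time point and dye orientation, and tested with limma 3.58.1 (R 4.3.3) on the 5 averages. A linear model over 30 arrays took time as 5 levels and dye-swap, with Benjamini-Hochberg adjustment. Both were also run on simulated data with known changes, which were larger than any member's mean. The members and lists were chosen with earlier results of these data known. Named are members past a test or the size rule, the 2 highest and 2 lowest of each class and genes with several measured spots, and interaction spots, dim spots and a few others were named after their values were seen. Other than the 85 members, 5 spots hold the ribosomal phrase later in their name. Alternatives changed the background correction, normalization, filter, source of ratios, replicates, time points and model terms.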

Additional observations from a re-analysis of the deposited data

Results flagged for a closer look

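The ratios of 6 member spots differed between time points by the linear model over 30 arrays, whose p-values cover only the scatter of repeated hybridisations: Timm17a spot b (adjusted p = 0.0061), Mrps21 spot a (adjusted p = 0.0099), Tim13 homologue a spot b (adjusted p = 0.032), Mrpl40 spot a (adjusted p = 0.070), Timm44 spot a (adjusted p = 0.098) and Mrpl30 (adjusted p = 0.12), each with an unadjusted p under 0.01. The quantification day and time cannot be told apart, except between 3 and 6 h and, on 8 arrays, between 12 and 24 h. In 45 groups of 6 arrays checked, 3 held an array far from the others, and chance gives about 1 in 20 groups. Timm44 spot a at 1 h had 0.14 on replicate 1, whose nearest neighbour was -0.12. The median of small-subunit spots at 24 h was -0.095 on replicate 3, with the nearest at 0.017. The median of large-subunit spots at 1 h was -0.12 on replicate 6, with the nearest at -0.043.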

How the results depend on the processing

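For the CRH effect, the trend and the late minus early difference, 0 members were called under each of the 21 alternatives run for each, those without a replicate included (0 to 0). With no averaging and the time point as a random block, limma called 63, 27 and 4 of all 14375 spots for the 3 effects, again without a member. The interaction was found in 5 to 10 members, and in 5 to 9 when a replicate was left out, while that of Timm23 held in 8 of 15 alternatives, with p up to 0.20. The number of members that changed over time was 6, and 2 to 5 without a replicate, lowest without replicate 3 (2) and also down to 3 without replicate 2 or replicate 6. It was 8 with no exclusion of spots for the interaction, 1 with time in hours as a number, 0 with the quantification day as a block, 3 for 3 h against 6 h alone and 0 for 12 h against 24 h on their shared day, the last chosen after seeing the data and with 8 arrays only. The shares of all spots that changed over time under these alternatives were not counted. The day block leaves only 3 h against 6 h and 12 h against 24 h to compare. Mrps21 spot a and Timm17a spot b passed without any single replicate, with p of at most 0.0024 and 0.0011. Tim13 homologue a spot b was lost without replicate 3. Mrpl30 passed in 7 of 21 alternatives, Timm44 spot a in 11 and Mrpl40 spot a in 12. Of the means over the 5 times, those of Mrps6 and Mrpl49 spot a shrank to -0.040 and -0.063 with median centring, and that of Mrpl37 spot b to 0.041 when spots of the same name were averaged. The size rule was met by 1 member, by 0 with the lowest 20% of intensities removed (which removed the spot) or a limit of 1 on the log2 scale, and by 0 to 1 without a replicate. The mean of Tim13 homologue a spot b at 1 h lay between -0.72 and -0.51 in all 13 alternatives that measured it. The large-subunit median stayed below 0 at 1 h (-0.084 to -0.026) and above 0 at 3 h (0.044 to 0.091) in 14 alternatives, and was of either sign at 6 and 12 h. Replicate numbers name arrays and pair nothing: after removal of time and dye means, same-numbered arrays of different times correlated at r from -0.024 to 0.048, and a replicate block in place of the dye-swap term left 5 members that changed over time. Signal, here the raw intensity against the dimmest 10% of spots, limits 22 member spots, Tomm40 among them.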

Other observations

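Without the limit on dim spots the 22 dim member spots also gave ratios, which are values only. Tomm40, the channel of the outer membrane, had means of -0.032, 0.44, 0.096, -0.13 and 0.057 over the 5 times in order. Mrps23 had -0.73 at 1 h, followed by 0.29 at 3 h, on a spot dim on 30 arrays. Mrpl54, dim on 22 arrays, had -0.51 and 0.58 at these times. The same order, below 0 at 1 h and above 0 at 3 h, was seen in further dim spots. These were Mrps25 (-0.48 and 0.17), Mrps24 (-0.37 and 0.26), Mrpl19 spot b (-0.62 and 0.45) and Timm17a spot a (-0.72 and 0.095). Tim13 homologue a spot a (-0.41 and 0.27) and Mrpl49 spot c (-0.2537 and 0.0515) had this order too. The opposite order, above 0 at 1 h and below 0 at 3 h, was seen in Timm17b spot a (0.42 and -0.079), Mrpl39 (0.35 and -0.12), Mrpl2 spot b (0.36 and -0.092), Mrpl2 spot a (0.12 and -0.045) and Mrpl19 spot c (0.26 and -0.17).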
